A study of Mus musculus with 8 samples.

Results

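Cluster C15 is the *Procr*-positive, pericyte-like cluster of the lactating mouse mammary gland. Its members are the cells that the deposited annotation of the study assigns to C15 and that passed every quality filter, joined to the count matrices by library and barcode. The lactation (L) libraries held 262 such cells, 205 in L mouse 1 and 57 in L mouse 2, out of 25010 passing cells in 8 libraries. The study sequenced single mammary cells of C57BL/6N mice on the 10× Chromium platform at 4 stages with 2 mice each: nulliparous mice aged 8 weeks (NP), gestation at day 14.5 (G), lactation at day 6 (L) and involution 11 days after natural weaning (PI). Cells were sorted as positive for the epithelial surface protein EpCAM, after cells carrying CD31, CD45 or Ter119 (endothelial, leukocyte and red cell surface proteins) had been set aside. Each library came from 1 mouse, the age of the L mice is not given in the sources used here, and no allele or treatment is named beyond the stage. Outside lactation the cluster held 1 cell in NP mouse 2 and 2 cells in PI mouse 1, so the values below come from the L mice alone.

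Pericytes are contractile cells that sit on capillaries inside the vessel's basement membrane, and together with the smooth muscle cells of larger vessels they make up the mural cells. They take up platelet-derived growth factor from the endothelium through PDGFRβ, they depend on NOTCH3 signalling, and they relax or contract with vasoactive peptides and nitric oxide. Myoepithelial cells of the gland share the contractile proteins of smooth muscle, but they are epithelial cells with keratins 5, 14 and 17, and they contract around the alveoli when oxytocin is released. Levels of mural, smooth muscle and keratin transcripts in the same cells therefore describe C15 from 3 sides.

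The values are counts of unique molecular identifiers (UMIs, each marking 1 captured transcript) as deposited. A UMI is counted once per transcript whatever the transcript's length, so levels were not divided by length. UMIs of all C15 cells of a mouse were summed and scaled to CPM, the count per 1000000 UMIs of that sum, and the same was done for the comparison clusters. These were the myoepithelial cluster C14 (4637 and 3104 cells in L mice 1 and 2), the fibroblast cluster C18 (284 and 52 cells) and the endothelial cluster C19 (191 and 51 cells). In each case values are given in the order L mouse 1, L mouse 2. The C15 sums held 644131 and 224739 UMIs, so 1 UMI is worth 1.55 and 4.45 CPM. The clusters were built by the authors from these same counts. Every difference between clusters is therefore a description with its spread over 2 mice, and no p-value is attached to it. A gene is called higher or lower where C15 differed at least 2-fold in both mice on log2(CPM + 10). It also had to be at 50 CPM or more in both mice in 1 of the clusters compared. A gene at that level in 1 cluster alone can only be called as higher in that cluster. List counts depend on this filter.

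C15 made up 3.57% of the cells of L mouse 1 (95% exact interval 3.11% to 4.09%, 205 of 5736) and 1.59% of those of L mouse 2 (1.21% to 2.06%, 57 of 3583). The intervals, here and below, cover counting error only. The share was higher in mouse 1, and 2 mice do not give a range for the stage. It is a share of the sorted cells that passed the filters and not of the gland. In NP mouse 1, both G mice and PI mouse 2 no C15 cell was found, which allows shares of up to 0.139%, 0.106%, 0.0998% and 0.0715%. Several cell types of the study were divided into clusters by stage. These bounds therefore hold for C15 as clustered and not for all cells of its kind. C15 cells held a median of 2895 and 3683 UMIs, with 1339 and 1593 genes, and C14 cells held 3701 and 4148 UMIs. Mitochondrial genes took a median of 0.671% and 0.923% of the UMIs of a C15 cell. No C15 cell had a barcode that also occurred in another library, since the authors' filters had removed such cells. The doublet cluster that the authors set aside matched a mixture of the main alveolar and basal clusters of the G mice. No further doublet call was made here, so doublets within the L libraries were not assessed. Of the C15 cells, 6 in mouse 1 and 2 in mouse 2 held more than 2 times the median UMIs of the cluster.

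The profile was alike in both mice. Of 2508 genes at 50 CPM or more in C15 of both mice, 2479 (98.8%) lay within 2-fold of each other, and the median absolute log2 difference between the mice was 0.22. Across 5705 genes, the Spearman correlation of C15 was 0.935 between the mice. It was 0.689 and 0.662 with C14 of the same mouse, 0.666 and 0.574 with C18, and 0.667 and 0.615 with C19. The luminal clusters C9 and C11 of the same libraries lay lower, between 0.504 and 0.577. These values run across genes, which are not independent, and the clusters of a mouse share its library.

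The 5 marker genes given for C15 were all high in it, and C18 and C19 each shared some of them. *Rgs5*, which encodes a GTPase activator that is the best known transcript of pericytes, was at 4288 and 3560 CPM. It stood at 76.2 and 14.9 CPM in C14, 10.3 and 4.33 CPM in C18 and 516 and 153 CPM in C19. C15 was thus the highest in both mice, by a log2 difference of 6.40 ± 1.08 (SD, n = 2 mice) over C14 and 3.74 ± 1.00 over C19. *Notch3*, the Notch receptor of mural cells, was at 581 and 481 CPM, against 11.6 and 3.97 CPM in C14 and 56.9 and 44.4 CPM in C19. In C18 it was at 4.73 CPM in mouse 1, and no UMI was found in mouse 2.

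*Procr*, the receptor of protein C on endothelial cells, was at 562 and 707 CPM in C15. Its level was 16.5 and 11.3 CPM in C14, 84.4 and 60.7 CPM in C18, and 234 and 552 CPM in C19. C15 exceeded C14 by 4.75 ± 0.45 on the log2 scale and C18 by 2.97 ± 0.53. Against C19 the difference was 0.79 ± 0.62, below 2-fold in mouse 2. *Zeb2*, a zinc finger repressor of epithelial genes, was at 397 and 294 CPM, and C18 overlapped it with 176 and 299 CPM. *Gng11*, a G protein γ subunit, was at 1006 and 908 CPM, and C19 had 1105 and 1133 CPM. So *Rgs5* and *Notch3* were called higher than in all 3 clusters, while *Procr* and *Gng11* were also high in endothelial cells and *Zeb2* in fibroblasts. The study counts C15 among its basal clusters but leaves its epithelial nature undecided. It reports the pericyte markers *Des* and *Cspg4* in C15, but not all the pericyte markers it examined. It kept the cluster because of markers of a *Procr*-positive cell type described earlier. The marker values do not go against the name pericyte-like. In GRCm38, *Rgs5* lies on chromosome 1 from 169655501 to 169695813, *Notch3* on chromosome 17 from 32120820 to 32166852, and *Procr* on chromosome 2 from 155751117 to 155755471.

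Across the transcriptome, 451 of 3167 (14.2%) were called higher and 418 (13.2%) lower in C15 than in C14. Among the called genes 51.9% were higher. With TMM or DESeq2 size factors in place of totals this share was 38.3% and 39.4%, since these scalings move the median difference of all genes by -0.27 and -0.25. Against C18, 483 of 3169 genes (15.2%) were higher and 438 (13.8%) lower, and against C19, 371 of 3403 (10.9%) were higher and 555 (16.3%) lower. The balance against C18 turned with TMM and DESeq2 size factors, to 408 and 424 genes higher and 528 and 486 lower. The median log2 difference over the genes tested was 0.08 against C14, 0.13 against C18 and -0.14 against C19. List counts below stand beside these figures.

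Members of the pericyte list that reached 50 CPM in C15 were all higher there than in the myoepithelial cells. Of its 20 genes, 16 were tested against C14, and all 16 passed the filter through C15, which favours higher calls. All 16 were called higher than in C14 and none lower (background 14.2% and 13.2%). The median log2 difference over all 20 members was 4.02. Against C18 14 of 18 genes were higher and 1 lower (background 15.2% and 13.8%). Against C19 14 of 16 were higher and none lower (background 10.9% and 16.3%). In each comparison 16 of the tested genes reached 50 CPM in C15, so the filter favours higher calls here too. The medians over all members were 3.01 and 3.04. *Rgs5* and *Notch3* belong to this list as well as to the markers above, so they are not counted on separate evidence. The summed level of the list was 11650 and 10790 CPM in C15 (11220 ± 609), against 290 and 152 CPM in C14, 1264 and 1522 CPM in C18 and 1840 and 1161 CPM in C19.

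Genes of the receptor and cytoskeleton classes were among them. *Pdgfrb*, the platelet-derived growth factor receptor of mural cells, was at 231 and 209 CPM, against 6.53 and 1.81 CPM in C14. C18, whose cells also carry this receptor, had 84.4 and 104 CPM, and the difference from it was not called. *Cspg4*, the NG2 proteoglycan of the pericyte surface, was at 107 and 129 CPM, and at no more than 12.4 CPM in any of the 3 other clusters. *Des*, the muscle intermediate filament desmin, was at 815 and 921 CPM, against 18.4 and 30.6 CPM in C14. *Mcam*, an adhesion molecule of vessels, was at 256 and 352 CPM, with C19 at 92.8 and 113 CPM.

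Mitochondrial and oxygen-related members of the list were also high in C15. *Ndufa4l2*, an isoform of a respiratory chain subunit, was at 1656 and 1646 CPM in C15, and its highest value in the other 3 clusters was 96.5 CPM. *Cox4i2*, the hypoxia form of a cytochrome oxidase subunit, was at 668 and 525 CPM, and *Higd1b*, of a family of hypoxia-inducible membrane proteins, at 442 and 267 CPM. *Rgs4*, another GTPase activator, was at 897 and 1215 CPM. The transcription factor *Foxs1* was at 140 and 218 CPM and the Notch target *Heyl* at 163 and 205 CPM.

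Some members of the list were not particular to C15. *Ebf1*, a transcription factor of stromal and B cells, was at 761 and 694 CPM, against 506 and 659 CPM in C18 and 554 and 577 CPM in C19, and neither difference was called. *Cd248*, endosialin, was at 37.3 and 31.1 CPM against 388 and 438 CPM in C18, and was the member called lower. *Kcnj8*, *Anpep*, *Tbx18* and *Cd248* stayed under 50 CPM in at least 1 mouse of C15. *Kcnj8*, a subunit of the ATP-gated potassium channel of vessels, differed most between the mice, with 85.4 and 13.3 CPM, while its partner *Abcc9* was at 109 and 66.7 CPM.

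**Figure D1:**
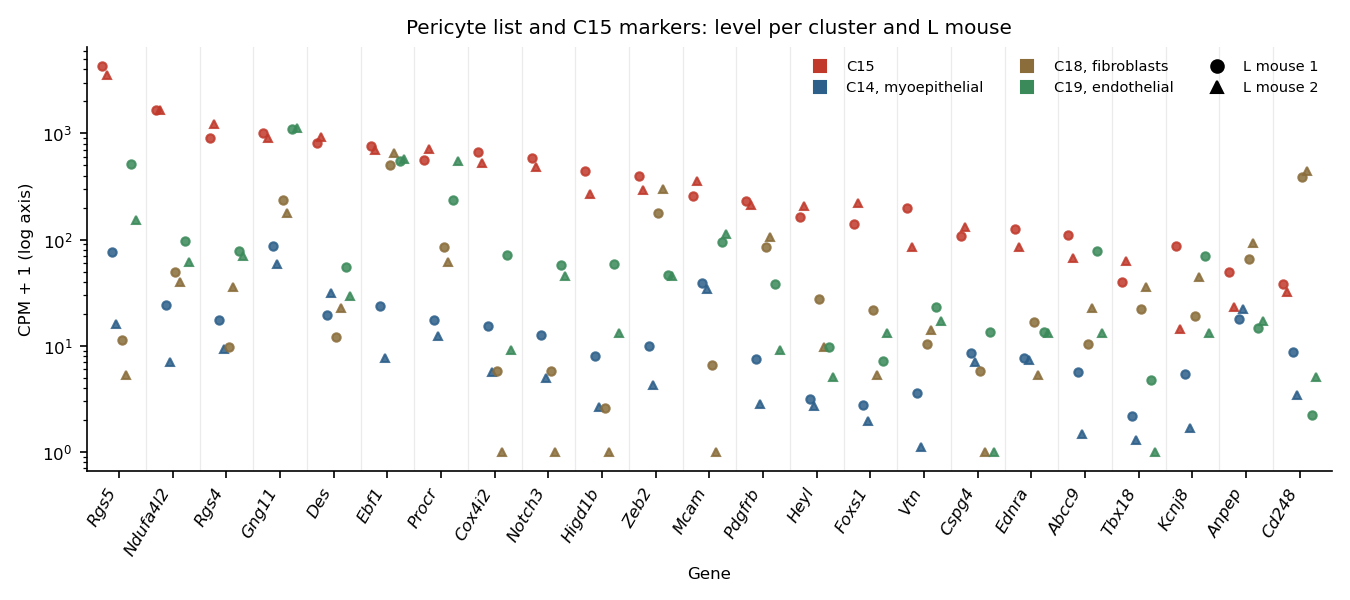
Level of the 20 pericyte genes and of *Procr*, *Zeb2* and *Gng11* in C15, C14, C18 and C19 of each L mouse, in CPM with 1 added on a log axis, each point being 1 cluster of 1 mouse. *Rgs5* of C15 sits at 4288 and 3560 CPM at the top, *Gng11* and *Ebf1* of C19 lie close to C15, and *Cd248* and *Anpep* are the genes where C18 lies above C15 in both mice.

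Smooth muscle transcripts were high in C15 too, but as a group they were below the myoepithelial level. The list's 20 genes summed to 39270 and 44710 CPM (41990 ± 3852), which was 42.8% and 56.1% of the 91800 and 79690 CPM of C14. The immune cluster C17 held 25270 and 6405 CPM. C18 and C19 reached only 5218 and 3087 CPM and 5788 and 4681 CPM, between 3.87% and 6.30% of C14. Against C14, 3 of 20 genes were higher and 6 lower, with a median of -0.47. Against C18 17 of 19 were higher (background 15.2%), and against C19 16 of 19 (background 10.9%), with none lower in either. All 19 passed the filter through C15, which favours higher calls. The medians over all 20 members were 3.16 and 2.74. They were 3.29 and 2.79 with the 2 members that had no UMI in those clusters set at the bound of 3 UMIs per library.

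*Acta2*, smooth muscle α-actin, was at 7376 and 8512 CPM in C15 and at 26577 and 22787 CPM in C14, a log2 difference of -1.63 ± 0.30 that was called lower. C18 held 1216 and 611 CPM and C19 1285 and 964 CPM, so C15 lay between these clusters and C14 in both mice. *Tpm2*, a tropomyosin, *Mylk*, the myosin light chain kinase, and *Smtn*, smoothelin, were lower than in C14 to a similar degree, by -1.63, -1.61 and -1.69 in mean log2 difference. Other contractile genes were within 2-fold of C14 in at least 1 mouse. *Tagln*, transgelin, was at 7012 and 8187 CPM against 10995 and 9237 CPM in C14. *Myh11*, the smooth muscle myosin heavy chain, was at 1899 and 2492 CPM against 4334 and 3948 CPM. *Myl9*, its regulatory light chain, was at 3459 and 4169 CPM against 4392 and 3854 CPM, so that C14 was the higher of the clusters in mouse 1 and C15 in mouse 2.

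2 contractile genes did not follow the rest. *Cnn1*, calponin, was at 297 and 267 CPM in C15, against 5216 and 4565 CPM in C14, 236 and 152 CPM in C18 and 260 and 230 CPM in C19. The log2 difference from C14 was -4.07 ± 0.03, and those from C18 and C19 were 0.55 ± 0.32 and 0.20 ± 0.02. *Actg2*, smooth muscle γ-actin, was at 120 and 89.0 CPM against 1934 and 1527 CPM in C14, and C18 had 87.5 and 60.7 CPM. Summed over C15, both genes stood at about the level of C18 and C19, which is not read as expression in the cluster as a whole. The *Rgs5* split of C15 cells below gives *Cnn1* for each group of cells.

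3 genes of the list went the other way and were far above the myoepithelial level. *Mustn1*, a small nuclear protein of muscle, was at 1126 and 1508 CPM in C15 and 18.3 and 9.45 CPM in C14. *Pln*, phospholamban, which restrains the calcium pump, was at 90 and 66.7 CPM against 1.23 and 0.421 CPM. *Myocd*, myocardin, the coactivator of serum response factor on smooth muscle genes, was at 54.3 and 57.8 CPM against 0.994 and 0.542 CPM. No UMI of *Pln* or *Myocd* was found in C18 or C19 of either mouse. Among list members at 100 CPM or more in C14, levels in C15 ran from *Cnn1* and *Actg2*, at 5.69% and 6.18% of C14 in mouse 1 and 5.85% and 5.83% in mouse 2, to *Ppp1r14a*, an inhibitor of myosin phosphatase, at 118% and 178%.

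Serum response factor and myocardin act at CArG boxes, so the promoters of 2 abundant members with such boxes are shown as context for the list. The sequences are the 250 bases before the RefSeq transcription start in GRCm38.p6, 5′ to 3′ on the gene's strand, with capitals for each CArG box found with up to 1 mismatch. The *Acta2* window is chr19:34255374-34255623 on the minus strand and the *Myl9* window is chr2:156775214-156775463 on the plus strand.
Acta2: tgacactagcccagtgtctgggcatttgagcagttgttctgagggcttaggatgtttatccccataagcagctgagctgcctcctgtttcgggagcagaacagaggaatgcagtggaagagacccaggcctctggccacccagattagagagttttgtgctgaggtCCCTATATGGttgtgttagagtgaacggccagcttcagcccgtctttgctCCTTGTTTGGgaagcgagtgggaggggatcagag
Myl9: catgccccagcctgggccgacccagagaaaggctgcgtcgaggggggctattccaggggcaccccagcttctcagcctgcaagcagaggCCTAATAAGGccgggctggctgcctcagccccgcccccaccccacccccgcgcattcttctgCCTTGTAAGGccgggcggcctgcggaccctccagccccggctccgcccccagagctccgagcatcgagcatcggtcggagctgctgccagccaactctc
The boxes of *Acta2* end 75 and 25 bases before the start, and those of *Myl9* end 152 and 90 bases before it. RefSeq promoters were matched for 16 of the 20 smooth muscle genes. A CArG box with up to 1 mismatch on either strand was found in 6 of them (*Acta2*, *Cald1*, *Flna*, *Lmod1*, *Myl9* and *Tpm1*), against 18.6% of all 32851 windows of that length. An exact box was found in *Myl9* alone, against 1.47% of all windows. A match is a description of the letters and not evidence of binding.

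Keratins were as low in C15 as in the fibroblast and endothelial clusters. The 4 basal keratins summed to 753 and 788 CPM (770 ± 24.5) in C15, against 13280 and 14770 CPM in C14, 678 and 620 CPM in C18 and 771 and 762 CPM in C19. This was 5.67% and 5.33% of C14 for C15, and between 4.20% and 5.81% of C14 for C18 and C19. The immune cluster C17 stood higher, at 3728 and 1733 CPM, or 28.1% and 11.7% of C14. These sums too were uneven over cells. Thinned C17 cells held a median of 0 *Krt14* UMIs and at most 9 in both mice, against medians of 4 and 5 in C14. The source of the C17 keratin UMIs was not tested. All 4 basal keratins were lower in C15 than in C14 (background 13.2%), with a median log2 difference of -4.09. Of the 3 at 50 CPM or more against C18 or C19, none was called in either direction.

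*Krt14*, the main keratin partner of basal cells, was at 297 and 276 CPM in C15 and at 4878 and 5442 CPM in C14. C18 had 268 and 251 CPM and C19 303 and 319 CPM, so that the values of the 3 clusters overlapped. *Krt17* was at 310 and 343 CPM against 256 and 277 CPM in C18 and 330 and 375 CPM in C19. *Krt15* was at 101 and 71.2 CPM against 104 and 52.0 CPM in C18. *Krt5* was the least even, at 45 and 97.9 CPM against 50.5 and 39.0 CPM in C18 and 55.7 and 28.2 CPM in C19, with 999 and 915 CPM in C14. The luminal keratins followed the same pattern. Their sum was 148 and 84.5 CPM in C15, 148 and 99.7 CPM in C18, 125 and 113 CPM in C19, and 2241 and 1533 CPM in C14. No *Krt4* UMI was found in any of these clusters. Of the 7 other keratins listed, *Krt23* alone reached the level for a comparison with C14 and was lower, and *Krt10* was lower than in C18, at 17.1 and 8.90 CPM against 57.6 and 60.7 CPM.

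Genes of myoepithelial identity were low in C15 too, summing to 509 and 556 CPM against 428 and 512 CPM in C18, 970 and 960 CPM in C19 and 7548 and 8622 CPM in C14. All 13 of the 15 list members that reached 50 CPM were lower in C15 than in C14, with a median of -3.43 over the list. Only 3 members were at that level in C15, so the filter favours lower calls. None of 3 was called against C18. Against C19 1 of 5 was lower, *Itga6*, an integrin that vessels also carry, at 15.5 and 8.90 CPM against 303 and 177 CPM. *Oxtr*, the oxytocin receptor through which milk ejection is triggered, was at 43.5 and 40.0 CPM in C15, against 743 and 672 CPM in C14, 33.9 and 30.3 CPM in C18 and 23.5 and 20.2 CPM in C19. *Trp63*, the p63 factor that basal epithelium depends on, was at 4.66 and 4.45 CPM, 3 UMIs in mouse 1 and 1 UMI in mouse 2, against 146 and 154 CPM in C14. *Sox10* was at 3.10 and 4.45 CPM against 101 and 107 CPM. The largest falls against C14 among well expressed genes also included *Cxcl14*, a chemokine, with 326 and 352 CPM against 9608 and 8459 CPM, *Igfbp2*, with 32.6 and 40.0 CPM against 882 and 994 CPM, and *Mme*, the CD10 peptidase of myoepithelium, with 18.6 and 17.8 CPM against 555 and 577 CPM.

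**Figure D2:**
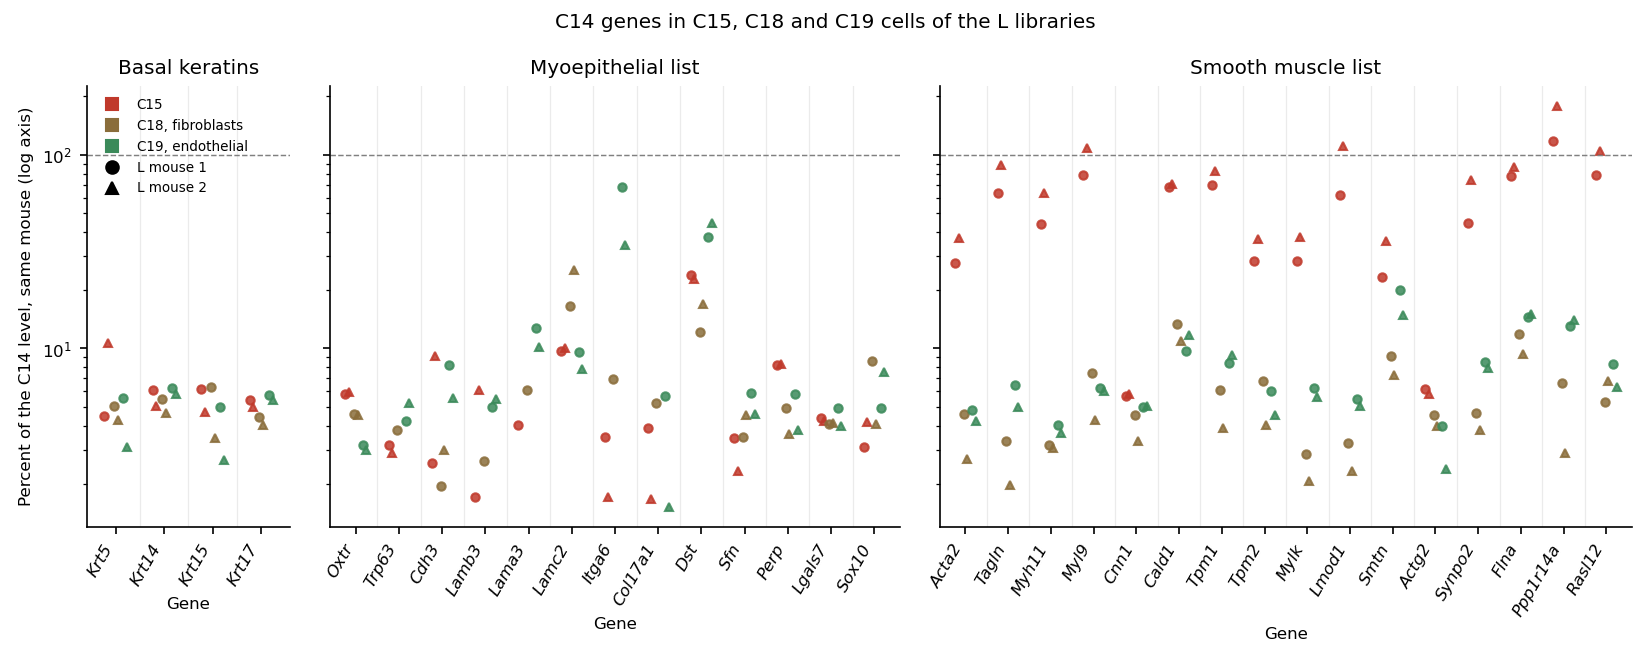
Level of basal keratin, myoepithelial and smooth muscle genes in C15, C18 and C19 as a percentage of the C14 level of the same L mouse (log axis, dashed line at 100%), for genes at 100 CPM or more in C14 of both mice, with genes lacking any UMI in a cluster left blank. Keratin and most myoepithelial genes of the 3 clusters overlap at a few percent, while most smooth muscle genes of C15, whose list sums to 42.8% and 56.1% of C14, lie above those of C18 and C19, and *Cnn1* and *Actg2* sit with them.

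*Epcam*, which encodes the protein used in the sort, was itself near the bottom of the range. It was at 18.6 and 13.3 CPM in C15, 17.4 and 8.67 CPM in C18, 12.4 and 8.06 CPM in C19 and 133 and 162 CPM in C14. Among 14 general epithelial genes, 3 were tested against C14 and all 3 were lower (*Epcam*, *Spint2* and *Cd24a*). None was tested against C18, and 2 of 2 were lower than in C19 (*Spint2* and *Cd24a*). Milk protein genes, which secretory luminal cells make in quantity, summed to 941 and 841 CPM in C15, 887 and 906 CPM in C18 and 833 and 871 CPM in C19, with 1813 and 2121 CPM in C14. Milk and keratin sums were thus alike in the 3 clusters. What part of these transcripts came from free RNA was not tested.

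Markers of other cell types that the gate could hold were below the level of the cluster they mark. Of 14 endothelial genes, all 14 were lower than in C19 (background 16.3%), with a median of -4.85. Only 1 of them reached 50 CPM in C15 of both mice, so the filter favours lower calls. The authors named C19 by *Eng*, *S1pr1* and *Emcn*, which are on this list, so the count only describes the clusters. *Pecam1*, the CD31 of the sort, was at 18.6 and 26.7 CPM against 1180 and 988 CPM in C19, and *Cdh5*, VE-cadherin, was at 17.1 and 4.45 CPM against 1003 and 911 CPM. *Esam*, an adhesion molecule of vessels, was the exception in being above C14, at 242 and 294 CPM against 14.2 and 4.69 CPM, though it too was below the 828 and 601 CPM of C19. The whole endothelial list summed to 456 and 476 CPM in C15 and 10160 and 9575 CPM in C19. Immune genes summed to 162 and 182 CPM, close to C18 with 170 and 208 CPM. *Ptprc*, the CD45 of the sort, was at 1.55 and 8.90 CPM. No UMI of the 4 haemoglobin genes was found in C15 of either mouse, and no glial gene of the 6 listed reached 50 CPM in any cluster compared.

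Fibroblast genes were the marker class that differed most between the mice. All 12 were lower than in C18 (background 13.8%), with a median of -5.90. Only 3 of them reached 50 CPM in C15 of both mice, so the filter favours lower calls. The authors named C18 by collagens and fibronectin, which are on this list, so the count only describes the clusters. No UMI of *Pdgfra*, the receptor of fibroblasts, was found in C15 of either mouse, against 185 and 212 CPM in C18. The list summed to 1660 CPM in C15 of mouse 1 and 405 CPM in mouse 2, and to 42580 and 43000 CPM in C18. Collagens made up most of this gap. *Col3a1* was at 741 and 151 CPM, *Col1a2* at 491 and 133 CPM and *Col1a1* at 200 and 35.6 CPM. *Col1a2* was at 82.9 and 16.1 CPM in C19 and 40.2 and 12.5 CPM in C14, so mouse 1 was also the higher in these clusters. What part free or attached fibroblast RNA had in the C15 values was not tested. Of 4 fibroblast genes tested against C14, 3 were higher (*Col3a1*, *Col1a2* and *Fn1*) and 1 lower, and of 3 tested against C19, 2 were higher (*Col3a1* and *Col1a2*). *Dcn*, decorin, was the lower one, at 60.5 and 13.3 CPM in C15 against 497 and 423 CPM in C14.

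Several Notch genes were higher than in C14. Of 14 Notch genes, which include *Notch3* and *Heyl* from the pericyte list, 8 were tested against C14, and 6 were higher and 1 lower, with a median of 1.18 over all members. Against C18 5 of 7 were higher and none lower, with a median of 1.01. Against C19 4 of 9 were higher and 3 lower (*Notch1*, *Dll4* and *Hey1*), with a median of 0.22, so there was no common direction against the endothelial cluster. The target genes were *Nrarp*, a feedback inhibitor, at 475 and 676 CPM against 10.2 and 7.46 CPM in C14 and 147 and 161 CPM in C19, and *Hey2*, a repressor of the arterial wall, at 69.9 and 62.3 CPM against 1.04 and 0.782 CPM in C14. *Hes1*, which many pathways switch on, was at 418 and 476 CPM and *Jag1*, a ligand that mural cells also present, at 220 and 298 CPM. *Hes1* was at 314 and 439 CPM in C19 and was not called against it. The ligands of the other clusters were nearly absent. *Dll1*, a ligand of myoepithelial cells in this table, was at 9.31 and 8.90 CPM in C15 against 158 and 144 CPM in C14. *Dll4*, the endothelial ligand, was at 3.10 CPM in mouse 1 without a UMI in mouse 2, against 94.1 and 202 CPM in C19. The other receptors were low in C15, with *Notch1* at 54.3 and 40.0 CPM and *Notch2* at 26.4 and 35.6 CPM. The binding motif of RBPJ, TGGGAA on either strand, was found in the promoters of *Hey2* and *Rbpj* among 11 matched Notch genes, against 21.6% of all windows.

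The genes by which vessels set their tone that reached 50 CPM in C15 were all higher there than in C14. The files held 18 of 20 such genes, and 11 were tested against C14. All 11 passed the filter through C15, which favours higher calls, and all 11 were higher in C15 (background 14.2%). The median was 2.59 over the 18. Against C18 10 of 11 were higher (background 15.2%), and against C19 8 of 12 were higher and 1 lower (background 10.9% and 16.3%). In these comparisons too, 11 of the tested genes reached 50 CPM in C15. *P2rx1*, an ATP-gated cation channel, was at 297 and 436 CPM in C15 and at no more than 2.93 CPM in the other 3 clusters. *Gucy1a3* and *Gucy1b3*, the subunits of the nitric oxide receptor, were at 691 and 694 CPM and at 338 and 263 CPM, with C14 at 86.8 and 52.8 CPM and at 50.9 and 40.3 CPM. The phosphodiesterases *Pde3a* and *Pde5a*, which break down cyclic nucleotides, were at 320 and 365 CPM and at 96.3 and 75.6 CPM.

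Receptors for vasoconstrictor peptides were lower in level but also above C14. *Ednra*, the endothelin receptor of smooth muscle, was at 124 and 84.5 CPM against 6.72 and 6.38 CPM in C14. *Ednrb*, the other endothelin receptor, was at 52.8 and 182 CPM and overlapped C19, which had 175 and 84.7 CPM. *Agtr1a*, the angiotensin receptor, was at 91.6 and 53.4 CPM and overlapped C18, with 31.5 and 65.0 CPM. *Avpr1a*, the vasopressin receptor, was at 76.1 and 66.7 CPM, and its highest value elsewhere was 13.6 CPM in C19. *Npr1*, the receptor of atrial natriuretic peptide, lies outside this class. It was at 9.31 and 8.90 CPM, under the level for a comparison with C14 and below the 96.5 and 101 CPM of C19.

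Growth factor, matrix and protein C genes gave a mixed picture. *Pdgfa* was at 691 and 868 CPM, against 299 and 304 CPM in C14 and 84.2 and 96.8 CPM in C19, and *Angpt2*, an antagonist of the endothelial receptor TIE2, at 152 and 120 CPM against 2.18 and 0.662 CPM in C14. *S1pr3*, a sphingosine phosphate receptor, was at 191 and 249 CPM, and no other cluster exceeded 34.7 CPM. Of 11 basement membrane genes tested against C14, 6 were higher and none lower, among them *Col4a1*, the collagen IV α1 chain, at 1059 and 881 CPM against 313 and 341 CPM. Against C18 3 of 15 were higher and 5 lower, and *Nid1*, nidogen, stood at 186 and 93.4 CPM against 780 and 910 CPM. *Col18a1*, from which endostatin is cut, was at 349 and 360 CPM and above both C14 and C18.

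The genes of protein C and clotting differed by member. Of 12 genes in this list, *Procr* included, 7 were tested against C14, and 4 were higher and 2 lower. *Thbd*, thrombomodulin, which activates protein C on endothelium, was at 49.7 and 22.2 CPM in C15, under the level for a comparison with C14, and was lower than the 145 and 125 CPM of C19. *F2r*, the thrombin receptor PAR1, was at 51.2 and 53.4 CPM against 4.83 and 7.64 CPM in C14. *Serpine2*, a protease inhibitor, was at 374 and 329 CPM against 12.4 and 13.6 CPM in C14. *Thbs1*, thrombospondin, was lower, at 477 and 627 CPM against 1961 and 2259 CPM. Among genes of mesenchymal identity, *Nr2f2*, the venous factor COUP-TFII, was at 320 and 254 CPM against 19.8 and 12.9 CPM in C14, and *Zeb1* at 79.2 and 116 CPM against 4.02 and 2.47 CPM. *Snai2*, the factor of basal mammary cells, was at 14 and 17.8 CPM, below the 53.2 and 58.5 CPM of C14.

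The insulin-like growth factor binding proteins differed by member. *Igfbp7* was at 7898 and 7555 CPM against 492 and 376 CPM in C14, and C19 had 5486 and 2939 CPM. *Igfbp4* was at 1256 and 1393 CPM against 79.1 and 95 CPM in C14, while C18, at 1070 and 910 CPM, was within 2-fold of it. The growth factor *Igf2* was at 137 and 209 CPM in C15 and at 235 and 609 CPM in C19, with 2.51 and 1.75 CPM in C14. *Crip1*, a LIM domain protein of unsettled role, was among the most abundant transcripts of C15, at 11729 and 13798 CPM, against 203 and 96.5 CPM in C14 and 3051 and 2683 CPM in C18.

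The genes with the largest excess over all of C14, C17, C18 and C19 in the same mouse (C17 being an immune cluster) were led by *P2rx1*, *Nrip2*, *Ndufa4l2*, *Gm13861* and *Des*. They included 2 genes of the olfactory receptor family, *Olfr558* at 286 and 347 CPM and *Olfr78* at 110 and 102 CPM, against at most 14.9 CPM for *Olfr558* and 1.80 CPM for *Olfr78* in C14, C18 and C19. *Kcnk3*, a background potassium channel of vascular smooth muscle, was at 132 and 205 CPM against at most 3.71 CPM in these 3 clusters. *Rrad*, a GTPase that holds back calcium channels, was at 498 and 605 CPM, and *Ptp4a3*, a phosphatase, at 944 and 1175 CPM.

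Early response genes, which tissue dissociation can induce, were at a common level. None of 14 was called against C14 or C19, and 1 (*Ier2*) was lower than in C18. They summed to 31150 and 28270 CPM in C15 and 35250 and 28910 CPM in C14. Division genes summed to 323 and 414 CPM in C15, above the 121 and 113 CPM of C14 and below the 477 and 573 CPM of C19. *Mki67*, the Ki-67 antigen, was at 43.5 and 48.9 CPM in C15 against 2.13 and 1.32 CPM in C14, under the 50 CPM that a call required.

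Cell by cell, nearly every C15 cell carried pericyte transcripts. To compare cells of unequal depth, each cell was thinned to 1000 UMIs, which all C15 cells reached. A UMI of the pericyte list was then found in 204 of 205 cells of mouse 1 and in 57 of 57 of mouse 2, with a median of 10 UMIs in both mice (quartiles 7 to 16 and 6 to 15). The median was 0 in C14, 1 in C18 of both mice, and 1 and 0 in C19. Presence of 1 pericyte UMI was thus common in C18 cells too, and the number per cell carries the comparison. Smooth muscle UMIs were present in every C15 cell, with medians of 36 and 41, against 90 and 76 in C14, 4 and 3 in C18 and 5 and 4 in C19. Presence of a smooth muscle UMI does not tell the clusters apart, since 92.2% to 99.7% of C18 and C19 cells held one too, so the medians carry the comparison. Within C15 the lists ran against each other, with a Spearman correlation of -0.35 and -0.29 across the 205 and 57 cells, which share a library and a fixed total of 1000 UMIs.

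*Procr* marked only part of the cluster at this depth. A *Procr* UMI was found in 37.6% of thinned C15 cells of mouse 1 (95% exact interval 30.9% to 44.6%) and 47.4% of mouse 2 (34.0% to 61.0%), against 1.10% and 0.870% of C14 cells, and without thinning in 66.3% and 77.2%. C19 reached 19.9% (14.5% to 26.3%) and 29.4% (17.5% to 43.8%), with an interval that overlapped that of C15 in mouse 2. *Rgs5* was found in 69.8% and 59.6% of C15 cells (77.6% and 71.9% without thinning), against 12.6% and 5.88% of C19 cells, and *Notch3* in 43.9% and 36.8% (77.6% and 77.2% without thinning), against 3.14% and 0% of C19 cells (10.5% and 5.88% without thinning). At 1000 UMIs, 0 of 51 cells allows a share of up to 5.88% of cells with a UMI. Cells with a *Procr* UMI had medians of 10 and 11 pericyte UMIs and cells without it of 10 and 9, so *Procr* detection did not separate cells by the pericyte list. The Spearman correlation of *Procr* with the list across cells was 0.05 and 0.06, over 205 and 57 cells that share a library.

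Keratin UMIs per cell were about as frequent as in C18 and C19. After thinning, 52.7% (45.6% to 59.7%) and 56.1% (42.4% to 69.3%) of C15 cells held a basal keratin UMI, with a median of 1 UMI in both mice. This was 58.1% and 40.4% in C18 and 55.0% and 45.1% in C19, and in C14 it was nearly every cell, with medians of 12 and 14 UMIs. *Krt14* alone was found in 22.9% and 28.1% of C15 cells, 26.1% and 15.4% of C18 cells, 23.6% and 21.6% of C19 cells and 97.2% and 97.5% of C14 cells. Without thinning the *Krt14* shares were 59.0% and 57.9% in C15, 62.3% and 69.2% in C18 and 61.8% and 64.7% in C19. Median depths were 2895 and 3683 UMIs in C15, 4043.5 and 4015 in C18 and 3378 and 4028 in C19 before thinning. The C15 shares of the list and of *Krt14* overlapped those of C18 and C19 and are not read as keratin expression, and the source of these UMIs was not tested. *Krt5* was uneven between the mice, at 4.88% (2.36% to 8.79%) and 14% (6.26% to 25.8%), against 4.93% and 3.85% in C18 (0.469% to 13.2% in mouse 2) and 5.76% and 0% in C19, so that mouse 2 stood above the other clusters with an interval that overlapped that of C18.

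Keratin-positive C15 cells showed no fall in mural transcripts that was common to both mice. Pericyte and basal keratin UMIs occurred together in 107 of 205 cells (52.2%) and 32 of 57 cells (56.1%). As nearly all cells held a pericyte UMI, this share follows the keratin share, and the numbers of UMIs carry the comparison. Cells with a basal keratin UMI had medians of 11 and 8 pericyte UMIs and 38.5 and 45 smooth muscle UMIs. Cells without had medians of 10 and 11 pericyte UMIs and 33 and 38 smooth muscle UMIs. The pericyte medians thus differed in direction between the mice, with 32 and 25 cells in the groups of mouse 2. *Rgs5* was found in 70.2% of *Krt14*-positive and 69.6% of *Krt14*-negative cells of mouse 1, and in 56.3% and 61.0% of those of mouse 2. The Spearman correlation of smooth muscle with basal keratin UMIs across C15 cells was 0.06 and 0.11.

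**Figure D3:**
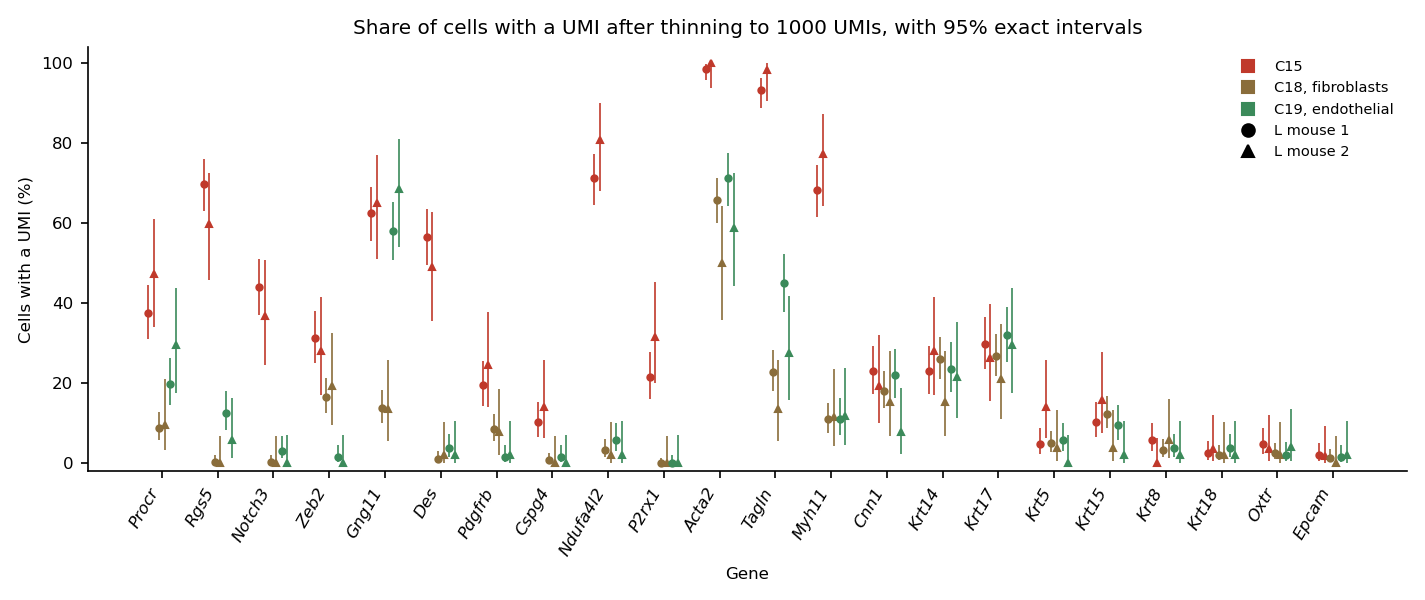
Share of C15, C18 and C19 cells of each L mouse with at least 1 UMI of 22 genes after thinning to 1000 UMIs, in percent, with 95% exact binomial intervals that cover counting error only. *Rgs5*, *Notch3*, *Des* and *Ndufa4l2* of C15 stand clear of C18 and C19, *Gng11* overlaps C19, and *Krt14*, *Krt17*, *Cnn1* and *Epcam* overlap in all 3 clusters.

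**Figure D4:**
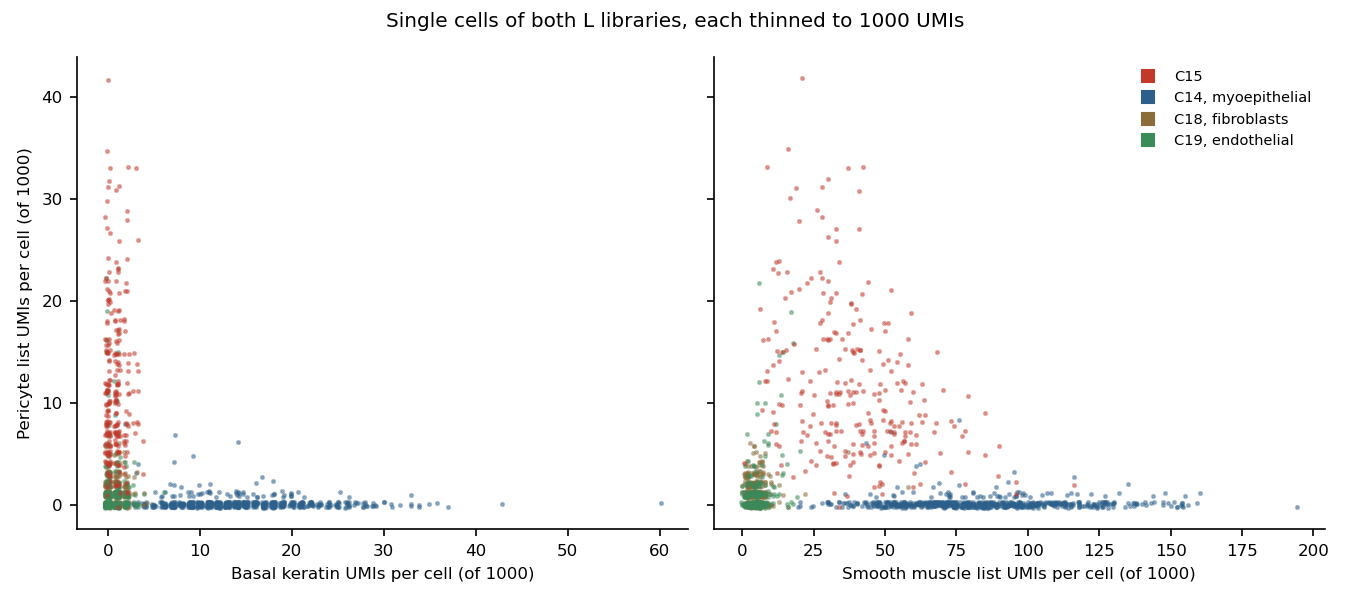
UMIs of the pericyte list against those of the basal keratins (left) and of the smooth muscle list (right) per cell, out of 1000 UMIs, with a small random offset to separate points, for all C15, C18 and C19 cells and an evenly spaced subset of C14 cells of the L mice. C15 cells rise along the pericyte axis at 0 to 4 keratin UMIs, and on the right they lie between the C18 and C19 cells near 0 and the C14 cells.

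Within C15, *Rgs5* ran against the smooth muscle list as a whole. The Spearman correlation of *Rgs5* with the smooth muscle list across thinned cells was -0.41 in mouse 1 and -0.34 in mouse 2, over 205 and 57 cells. With *Acta2*, the most abundant contractile gene, it was -0.23 and -0.08. All UMIs of a cell share the total of 1000. The correlation of *Rgs5* with the rest of the pericyte list was 0.31 and 0.43. The cells were then split by the presence of an *Rgs5* UMI among the 1000, a split chosen after these values were seen. It gave 143 and 34 cells with *Rgs5* and 62 and 23 without. Levels of the other genes were taken from all UMIs of the cells, at median depths of 2968 and 3508 UMIs with *Rgs5* and 2728 and 3945 UMIs without. Of the genes measured, 100 of 2875 (3.48%) were at least 2-fold higher in both mice in the cells with *Rgs5* and 74 (2.57%) lower, with *Rgs5* itself among the former by construction. The median difference of all genes was 0.07.

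Smooth muscle genes were the lower group in the *Rgs5*-positive cells. Of the 20, 18 were below 0 in both mice and none was above 0 in both, with a median log2 difference of -0.80, and 4 (*Pln*, *Myocd*, *Smtn* and *Mustn1*) were lower by 2-fold in both. *Acta2* was at 6877 and 8134 CPM with *Rgs5* and 8581 and 9042 CPM without, a difference of -0.24 ± 0.12 that was not called. *Mustn1* was at 790 and 1052 CPM with *Rgs5* and 1937 and 2148 CPM without. *Smtn* was at 59.3 and 53.4 CPM with it and 154 and 182 CPM without. *Cnn1* was at 244 and 168 CPM with *Rgs5* and 425 and 406 CPM without, and was not called. Its level without *Rgs5* lay above those of C18 and C19 in both mice. *Pln* was at 30.7 CPM with *Rgs5* in mouse 1 and had no UMI in mouse 2, against 234 and 160 CPM without. The list summed to 35090 and 39930 CPM with *Rgs5* and 49370 and 51420 CPM without. Both groups thus kept contractile transcripts far above the C18 and C19 level.

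Of the pericyte list without *Rgs5*, 15 of 19 genes reached 50 CPM, 10 were above 0 in both mice and 3 below, with a median of 0.65. *Higd1b* was at 542 and 358 CPM with *Rgs5* and 202 and 139 CPM without, and *Vtn*, vitronectin, at 268 and 145 CPM with it and at 31.8 CPM and no UMI without. *Rgs16*, a relative of *Rgs5*, was at 641 and 564 CPM with *Rgs5* and 127 and 10.7 CPM without. *Notch3* and *Des* stayed within 2-fold. *Procr* was at 621 and 778 CPM with *Rgs5* and 419 and 609 CPM without, which was not called. Basal keratins summed to 759 and 755 CPM with *Rgs5* and 738 and 834 CPM without. Fibroblast genes were also the higher in cells with *Rgs5*. Of 12, 4 reached 50 CPM, 3 of them were above 0 in both mice and 1 below, with a median of 0.92. Their sum was 1896 and 496 CPM with *Rgs5* and 1088 and 278 CPM without, and *Col1a1* was called higher. Their part in the split was not tested.

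**Figure D5:**
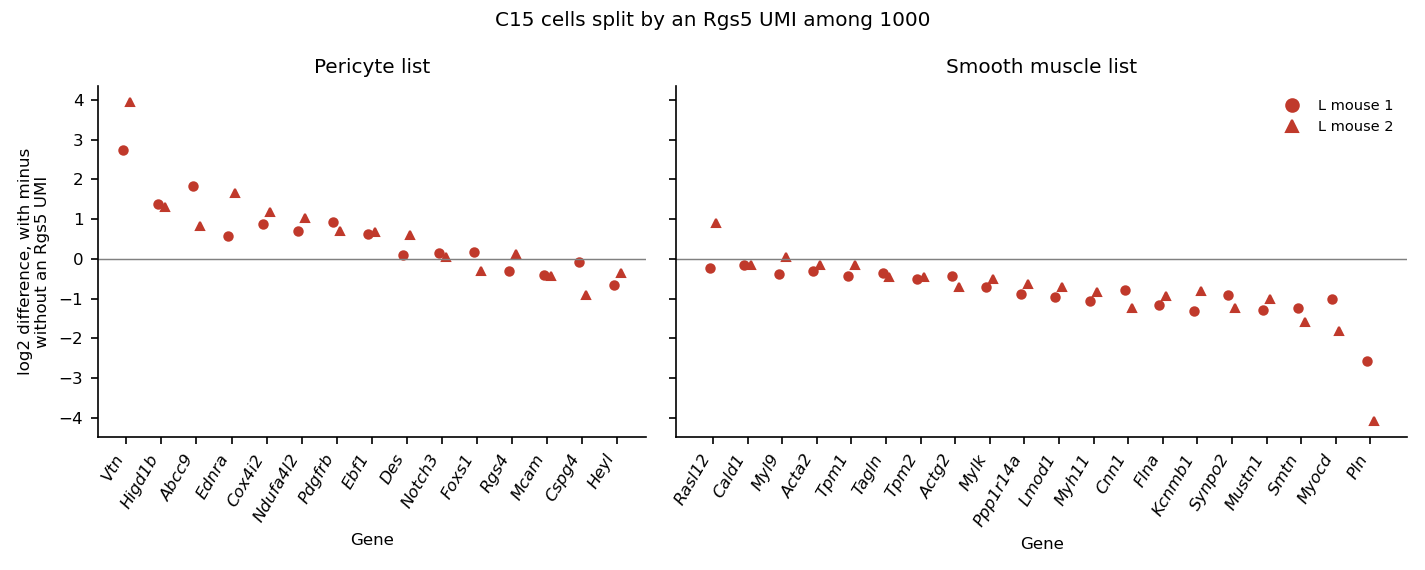
log2 difference between C15 cells with and without an *Rgs5* UMI among 1000, per L mouse, for the pericyte genes other than *Rgs5* (left) and the smooth muscle genes (right) that reached 50 CPM. Most smooth muscle genes lie below 0 in both mice, down to *Pln*, and pericyte genes spread from *Vtn* at the top to *Heyl* below 0.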

How the data were processed

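Single-cell RNA-seq data of mammary cells from 8 mice (4 stages, 2 mice each) were used, and the comparisons were made in the 2 L mice. The deposited matrices hold raw counts of UMIs per gene and cell (27998 genes), which the authors made with Cell Ranger against mm10, with STAR named in the submitters' processing notes without a version. The deposited annotation gives each cell's library, cluster and quality calls, its UMI and gene counts, and the fraction of UMIs from mitochondrial genes, all computed by the authors. Cells that passed every filter of the authors were kept, which had removed cells whose barcode sequence occurred in more than 1 library, and the doublet class of the authors was left out.

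UMIs were summed per cluster and mouse and scaled to CPM. Genes at 50 CPM or more in both mice in 1 of the 2 clusters were compared on log2(CPM + 10), within each mouse, and called at a difference of at least 1 in both mice. The log2 scale with 10 CPM added understates the differences of low genes. As the clusters were built from these counts, no p-value is given between them. Shares of cells were taken after each cell was thinned at random to 1000 UMIs, with exact (Clopper-Pearson) 95% intervals, and a count of 0 was read as up to 3 counts. Intervals cover counting error only. The depth of a cluster is the sum of its cells' UMIs, given with the results. C14, C18 and C19 were compared because they are the myoepithelial, fibroblast and endothelial clusters of the same libraries. The immune cluster C17, with 212 and 156 cells in L mice 1 and 2, was not compared gene by gene, apart from the genes of largest excess. Values per thinned C17 cell are given for *Acta2*, *Krt14* and *Zeb2*.

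The genes named are the members of 23 gene lists, the genes that the study gives for basal clusters, the 10 most abundant genes of C15 without ribosomal and mitochondrial genes, the 15 with the largest excess over C14, C17, C18 and C19 among genes at 100 CPM or more, and the 10 with the largest fall against C14. The members and lists were chosen with earlier results of these data known. Coordinates come from GENCODE vM21, which held all 267 named genes, and promoters from RefSeq.

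Alternatives were TMM (edgeR 4.0.16) and DESeq2 1.42.0 size factors, other totals, pseudocounts, filters and thresholds, other thinning, 1 mouse left out, and an edgeR quasi-likelihood fit on the counts with mouse as a term, which was tested on simulated data first. R 4.3.3, Python 3.11.15, numpy 2.4.6, scipy 1.17.1, pandas 2.3.3 and matplotlib 3.10.9 were used. The split by *Rgs5* and its alternatives were added after the data were seen. The values of 1 list member are not reported here.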

Additional observations from a re-analysis of the deposited data

How the results depend on the processing

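Against C14, the 451 higher and 418 lower genes became 684 and 665 with a filter at 20 CPM, 775 and 749 with no filter, and 237 and 208 at a log2 difference of at least 2. Against C18, the 483 higher and 438 lower genes became 741 and 695 with no filter and 225 and 226 at a log2 difference of at least 2. Against C19, 371 higher and 555 lower genes became 600 and 905 with no filter and 165 and 261 at the stricter difference. These settings test more genes or demand more of each by construction.

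The edgeR fit with the replicate block, which takes mouse as a term and calls genes at an adjusted p of 0.05 and a log2 fold change of at least 1, called 1205 higher and 1657 lower against C14, 824 and 881 against C18, and 790 and 951 against C19. It is not independent of the clustering. It shared 431 of the 451 higher and 418 of the 418 lower genes against C14, 479 of 483 and 438 of 438 against C18, and 371 of 371 and 553 of 555 against C19. With 1 mouse left out, so that the other alone had to pass, the counts were 569 to 624 higher and 509 to 551 lower against C14, 631 to 828 and 526 to 725 against C18, and 499 to 604 and 718 to 925 against C19, each time with the larger number where mouse 1 was left out.

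TMM and DESeq2 size factors gave 343 and 348 higher and 553 and 536 lower genes against C14, and 408 and 424 higher and 528 and 486 lower against C18. They moved the median difference of all genes by -0.14 and -0.10 against C18 and by 0.09 and 0.10 against C19. No called gene among the 94 that were recomputed under each alternative changed sign.

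The basal keratin level of 770 CPM was 736 CPM as a mean of single-cell CPM. The share of C15 cells with a pericyte UMI, 99.8% as the mean of the mice, was 98.1% for at least 2 UMIs. The share with a basal keratin UMI, 54.4%, was 79.5% at 2000 UMIs per cell, 89.9% with all UMIs, 51.8% with another random draw and 22.5% for at least 2 UMIs. Co-detection of pericyte and basal keratin UMIs, 54.2%, was 79.5%, 89.9% and 21.4% at 2000 UMIs, with all UMIs and for at least 2 UMIs. The median differences of the *Rgs5* split lay between 0.52 and 0.74 for the pericyte list and between -0.93 and -0.70 for the smooth muscle list under the other splits, including all UMIs, 2000 UMIs, another draw and each mouse alone. With 57 C15 cells and 224739 UMIs in L mouse 2, genes under about 13.3 CPM there rest on 3 UMIs or fewer.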
